A study of Mus musculus with 24 samples.

Results

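The insulin-like growth factor (IGF) genes described here are 10 genes taken by name from the deposited table of 22889 gene entries: the ligands *Igf1* and *Igf2*, the receptors *Igf1r* and *Igf2r*, the receptor substrates *Irs1* and *Irs2*, and the binding proteins *Igfbp2*, *Igfbp3*, *Igfbp4* and *Igfbp5*. All 10 were in the table. They were measured by poly(A) RNA sequencing in 24 samples of motor neuron cultures derived from mouse embryonic stem cells (mESCs), in 4 groups of 6. Oculomotor (OMN) cultures came from an *Islet1*-GFP/*NesEPhox2A* line, in which *Phox2a* is driven by the nestin enhancer and therefore in neural progenitors, and were grown as embryoid bodies whose 5-day patterning combined SAG at 250 nM, an agonist of the hedgehog receptor component Smoothened, with FGF8 at 100 ng/ml. Spinal (SC) cultures came from an *Hb9*-GFP line without that transgene and received 500 nM SAG and 100 nM retinoic acid for 5 days. Each culture was sorted into a GFP+ fraction and a GFP- fraction. The line, its reporter and the patterning factors changed together between OMN and SC cultures and cannot be told apart, and each arm rests on 1 line.

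IGF1 and IGF2 are secreted growth factors that signal through the receptor tyrosine kinase IGF1R, whose substrates IRS1 and IRS2 couple it to phosphoinositide 3-kinase and AKT. IGF2R, also the cation-independent mannose 6-phosphate receptor, takes IGF2 up for degradation, and the secreted IGF-binding proteins hold the ligands outside the cell and either limit or prolong their action. IGF signaling is known as a survival and growth pathway for motor neurons, and *Igf2* is a parentally imprinted gene that is highly active in embryonic tissues.

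The libraries differed in depth and composition, and some stood apart. RPKM, the unit of the table, is a read number scaled to transcript length and library size. The depth recovered from its steps was 751037 to 7657605 estimated reads, with 4790809 or more in replicates 5 and 6 of every group and 4612174 or fewer in replicates 1 to 4. The summed RPKM of 8 motor neuron markers was 373 to 808 in OMN GFP+, 57.2 to 310 in SC GFP+, 10.2 to 36.2 in OMN GFP- and 7.60 to 83.6 in SC GFP-. Both fractions of spinal culture 4 went against their labels. The library labelled SC GFP- replicate 4 held the reporter's own gene *Mnx1* (Hb9) at 69.4 RPKM, where the highest of the other SC GFP- libraries had 4.72 RPKM, and the library labelled SC GFP+ replicate 4 held *Isl1* at 7.63 RPKM against 50.4 to 123 RPKM in the others. In the latter library 8 neuron markers summed to 87.8 RPKM, against 457 to 2064 RPKM in the other SC GFP+ libraries, although *Mnx1* was at 43.1 RPKM in it and at 55.8 to 149 RPKM in those. *Phox2a* itself was at 5.83 to 53.4 RPKM in OMN GFP+, above every OMN GFP- library only in replicates 1 to 4. In SC GFP- replicate 2, 3 gene models held 68.8% of the summed RPKM.

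The 10 genes covered a wide range of levels, shown for every sample in the plot of log2(RPKM + 1) by gene. Averaged over the 24 samples, *Igfbp2* was highest at 251 RPKM, above 98.8% of all table entries. *Igfbp5* followed at 30.3 RPKM and *Igf2r* at 22.7 RPKM. *Igfbp4* (10.2 RPKM), *Igf2* (7.63), *Igf1r* (7.18), *Irs2* (6.94) and *Igfbp3* (5.34) formed a middle range. *Irs1* averaged 0.560 RPKM and *Igf1* 0.430 RPKM, and each exceeded 1 RPKM in 4 of 24 samples. RPKM is scaled by transcript length, but the annotation that gave the lengths is not stated, so this order across genes is approximate.

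**Figure D1:**
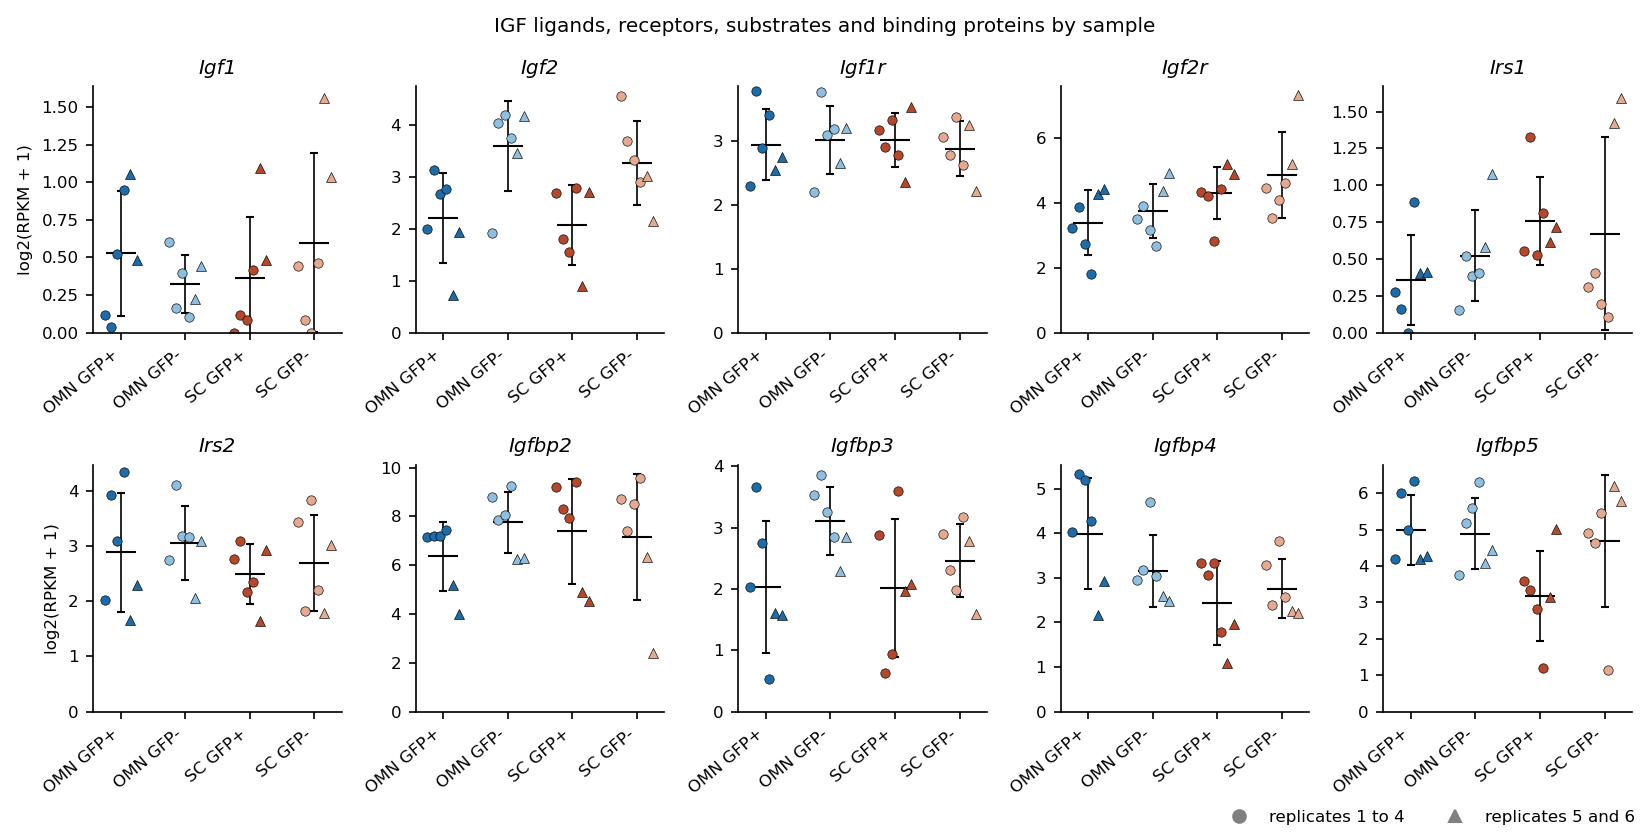
Level of each of the 10 genes as log2(RPKM + 1) in each sample by group, with circles for replicates 1 to 4, triangles for replicates 5 and 6, and black bars for the mean ± SD of 6 samples; each panel has its own vertical range. *Igf2* was lower in most GFP+ than GFP- samples of both cultures, *Igfbp2* was lower in replicates 5 and 6 of every group, and *Igf1* and *Irs1* stayed near 0.

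Differences on the log2(RPKM + 1) scale were tested with limma's moderated fit, with Benjamini-Hochberg adjustment over all genes and a threshold of 0.05. All 10 genes passed the filter on low values. In these fits 0 of the 10 genes passed in any comparison: OMN GFP+ against SC GFP+ (0.603% of all 19240 genes tested passed), OMN GFP- against SC GFP- (0.96% of 22179 genes), GFP+ against GFP- in OMN cultures (6.15%) and in SC cultures (1.23%), and the interaction that tests whether the step between fractions differed between cultures (0.32%). At an unadjusted p under 0.05 the counts were 2, 0, 2, 2 and 0 of 10, and the shares of all genes 10.1%, 11.3%, 18.1%, 10.4% and 7.13%. In no comparison did the values of 2 groups fail to overlap for any of the 10 genes, against 1.43%, 1.27%, 6.52% and 0.469% of all genes in the first 4 comparisons. The median log2 difference of the 10 genes was 0.07, 0.26, -0.17, -0.28 and -0.08 in the 5 comparisons, beside -0.04, -0.04, 0, 0 and 0.01 for all genes. A difference that misses the threshold does not show equal levels, and the 95% intervals in the plot of differences give the sizes that remain possible. Because GFP+ and GFP- libraries of the same culture and number deviated together in all 12 pairs, the fraction comparisons were also fitted with a block for the pair, and there 4 differences passed. *Igf2*, *Igfbp2* and *Igfbp3* were lower in OMN GFP+ than in OMN GFP- cells (3 of 10, all lower, against 8.21% of all genes called lower and 16.4% called at all), and *Igfbp5* was lower in SC GFP+ than in SC GFP- cells (1 of 10, against 1.6% called lower and 2.93% called at all). In the blocked interaction 0 of 10 passed (2.04% of all genes). Counts of pairs that moved in the same direction are given below as a description. The share of all genes with such counts is not given.

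**Figure D2:**
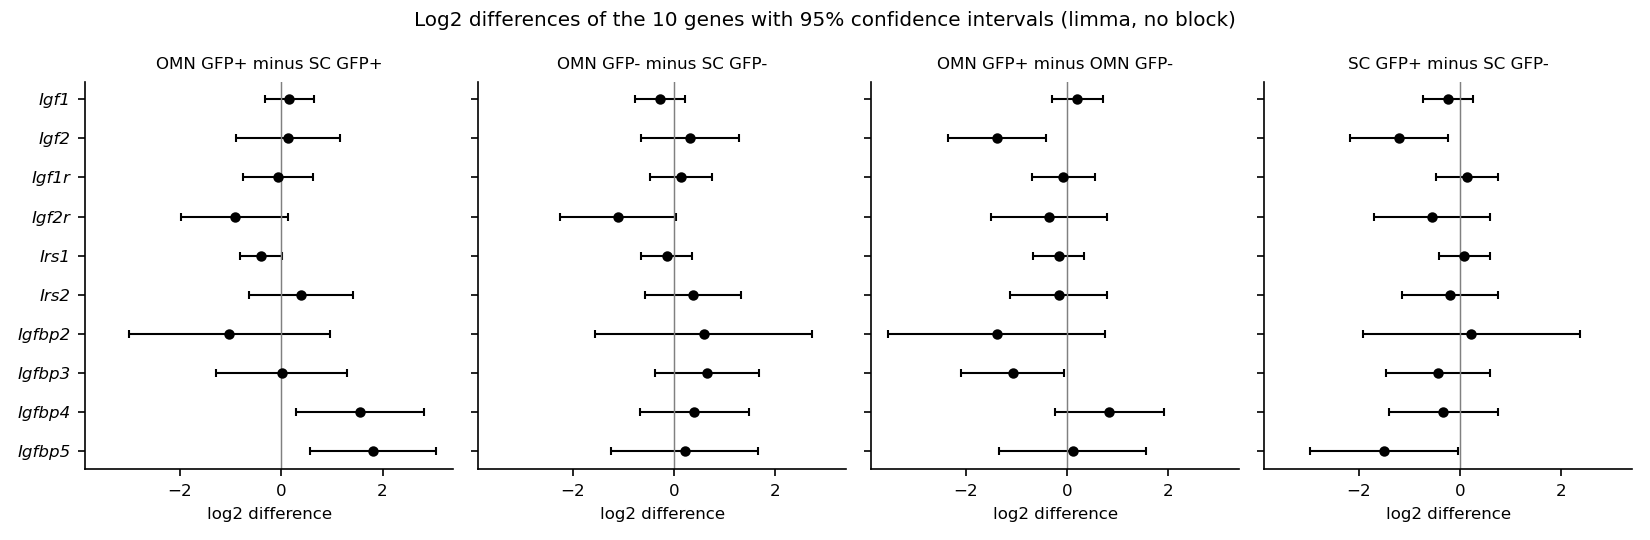
Log2 difference of each gene on the log2(RPKM + 1) scale in 4 comparisons, with points for the estimate and horizontal bars for the 95% confidence interval of the limma fit without the pair block. The intervals of *Igfbp4* and *Igfbp5* lay above 0 for OMN GFP+ against SC GFP+. Those of *Igf2* lay below 0 in both fraction comparisons. So did those of *Igfbp3* between the OMN fractions and *Igfbp5* between the SC fractions. No gene passed after adjustment over all genes.

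The promoter sequences of the 4 genes that passed with the pair block are given first, since 3 of them moved in the same direction in OMN cultures. Each line holds the 250 bases before a RefSeq transcript start (GRCm38.p6), 5′ to 3′ on the gene's strand. Capitals mark matches on either strand to 4 motifs. The TATA box was searched as TATAAA, and 12.4% of all 32851 mouse promoter windows of this length hold it. The GC box was searched as GGGCGG, which 32.7% hold. The CCAAT box was searched as CCAAT, which 33.8% hold. A forkhead motif was searched as GTAAACA, which 3.2% hold. *Igf2* (chr7:142650766-142666816, minus strand) has 4 start windows and the most downstream is shown, chr7:142657497-142657746. *Igfbp2* (chr1:72824503-72852474, plus strand) has 2 and the first is shown, chr1:72824230-72824479. *Igfbp3* (chr11:7206086-7213923, minus strand) has the window chr11:7213924-7214173, and *Igfbp5* (chr1:72857932-72874884, minus strand) the window chr1:72874866-72875115.
Igf2: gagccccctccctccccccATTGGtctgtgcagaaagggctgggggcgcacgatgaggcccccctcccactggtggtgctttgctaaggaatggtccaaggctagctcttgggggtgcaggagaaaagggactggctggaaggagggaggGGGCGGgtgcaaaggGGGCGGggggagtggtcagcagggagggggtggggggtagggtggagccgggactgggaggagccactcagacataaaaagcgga
Igfbp2: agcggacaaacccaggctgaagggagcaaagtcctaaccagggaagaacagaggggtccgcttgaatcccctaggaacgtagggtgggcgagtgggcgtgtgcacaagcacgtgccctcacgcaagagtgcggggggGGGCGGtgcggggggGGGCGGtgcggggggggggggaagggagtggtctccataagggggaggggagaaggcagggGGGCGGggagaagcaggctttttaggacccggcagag
Igfbp3: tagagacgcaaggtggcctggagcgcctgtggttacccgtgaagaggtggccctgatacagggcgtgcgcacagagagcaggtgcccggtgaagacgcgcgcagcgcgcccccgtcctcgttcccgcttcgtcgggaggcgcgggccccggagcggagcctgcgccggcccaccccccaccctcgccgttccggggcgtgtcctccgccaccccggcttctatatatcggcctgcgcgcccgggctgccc
Igfbp5: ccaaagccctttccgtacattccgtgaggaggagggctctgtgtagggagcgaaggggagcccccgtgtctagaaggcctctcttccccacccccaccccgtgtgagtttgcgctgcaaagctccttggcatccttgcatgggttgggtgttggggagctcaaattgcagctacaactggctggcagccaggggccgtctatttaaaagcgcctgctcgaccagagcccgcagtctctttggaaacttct
The *Igf2* window shown held 2 GC boxes and 1 CCAAT box, the *Igfbp2* window shown held 3 GC boxes, and the *Igfbp3* and *Igfbp5* windows held none of the 4 motifs. Counted from upstream, *Igf2* windows 1 and 2, not shown, held none of the motifs and window 3 held 1 GC box. The *Igfbp2* window not shown held none. CpG dinucleotides in the windows shown numbered 6, 14, 32 and 10, against a median of 6 (quartiles 2 and 16) over all windows. No match says only that these letters are not in the window.

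*Igf2* had lower medians in GFP+ than in GFP- cells of both cultures. The difference passed in OMN cultures with the pair block and did not pass in SC cultures, and the steps of the cultures were not shown to differ. In OMN GFP- cells it ranged from 2.77 to 17.3 RPKM (median 13.9), and in OMN GFP+ cells from 0.657 to 7.78 RPKM (median 4.19). OMN GFP- replicate 1, at 2.77 RPKM, was the only GFP- library within the range of the GFP+ libraries. The log2 difference was -1.38 (SE 0.47, n = 6 pairs, adjusted p = 0.0838) without the block and had an adjusted p of 0.0311 (SE 0.40) with it, and *Igf2* was lower in 5 of 6 pairs. It passed in 1 of the 6 blocked fits that left out an OMN pair, the one without replicate 1, where the difference was -1.67 (adjusted p = 0.0173). Without OMN GFP- replicate 1 the unblocked difference was -1.72 (adjusted p = 0.0255). In replicates 1 to 4 the log2 difference was -0.83 and in replicates 5 and 6 it was -2.48, so its size depended on which libraries entered.

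In SC cultures *Igf2* ranged from 3.45 to 22.6 RPKM (median 8.06) in GFP- cells and from 0.870 to 5.90 RPKM (median 3.95) in GFP+ cells. The log2 difference was -1.20 (SE 0.47, adjusted p = 0.312), or an adjusted p of 0.134 with the block, and again 5 of 6 pairs were lower in GFP+ cells. The step did not differ detectably between the cultures (interaction -0.18, 95% interval -1.55 to 1.18). Between the cultures the log2 differences were 0.14 (SE 0.48, adjusted p = 0.950, and 0.28 without SC GFP+ replicate 4) in GFP+ and 0.32 (SE 0.47, adjusted p = 0.839) in GFP- cells. The group medians ran from OMN GFP- through SC GFP- and OMN GFP+ to SC GFP+, and the ranges of neighbors in this order overlapped. In these bulk libraries fewer cells of a type and less RNA per cell cannot be told apart. An antisense transcript, *Igf2os*, overlaps *Igf2* exons and is a separate entry of the table, and this unstranded library type cannot assign shared reads.

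Markers of some other cell types differed between the fractions, not always in the same direction. Their part in the differences of the IGF genes was not tested. All 5 pluripotent cell markers reached 1 RPKM in at least 1 library of every group, and their sum was 680 to 9872 RPKM in OMN GFP- against 0.315 to 258 RPKM in OMN GFP+. In SC cultures the order was not the same, with 74.4 to 5753 RPKM in GFP- and 14.3 to 12396 RPKM in GFP+ cells. Of 8 endoderm markers, 6 reached 1 RPKM in OMN GFP- (sum 19.4 to 111 RPKM) and 2 in OMN GFP+ (0 to 4.13 RPKM), where *Afp* and *Apob* were at 0. In SC cultures 7 reached 1 RPKM in GFP- (64.4 to 302 RPKM) and 4 in GFP+ (1.07 to 77.7 RPKM, with *Afp* and *Apob* at 0). Of 10 fibroblast and mesenchyme markers, 3 reached 1 RPKM in OMN GFP+ (sum 1.41 to 14.2 RPKM) and 4 in OMN GFP- (4.41 to 34.5 RPKM). Floor plate markers (5 genes) summed to 5.59 to 69.5 RPKM in OMN GFP+ and 24.7 to 135 RPKM in OMN GFP-, and to 9.60 to 151 RPKM in SC GFP+ and 12.4 to 283 RPKM in SC GFP-. Neural progenitor markers (8 genes) summed to 122 to 481 RPKM in OMN GFP+ and 140 to 311 RPKM in OMN GFP-, and to 191 to 1495 RPKM in SC GFP+ and 194 to 2599 RPKM in SC GFP-. Of 5 astrocyte markers, 1 reached 1 RPKM in either OMN fraction, and their sums did not overlap, at 0.0458 to 1.60 RPKM in GFP+ and 3.67 to 8.71 RPKM in GFP- cells, where *Gfap* was at 0.

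**Figure D3:**
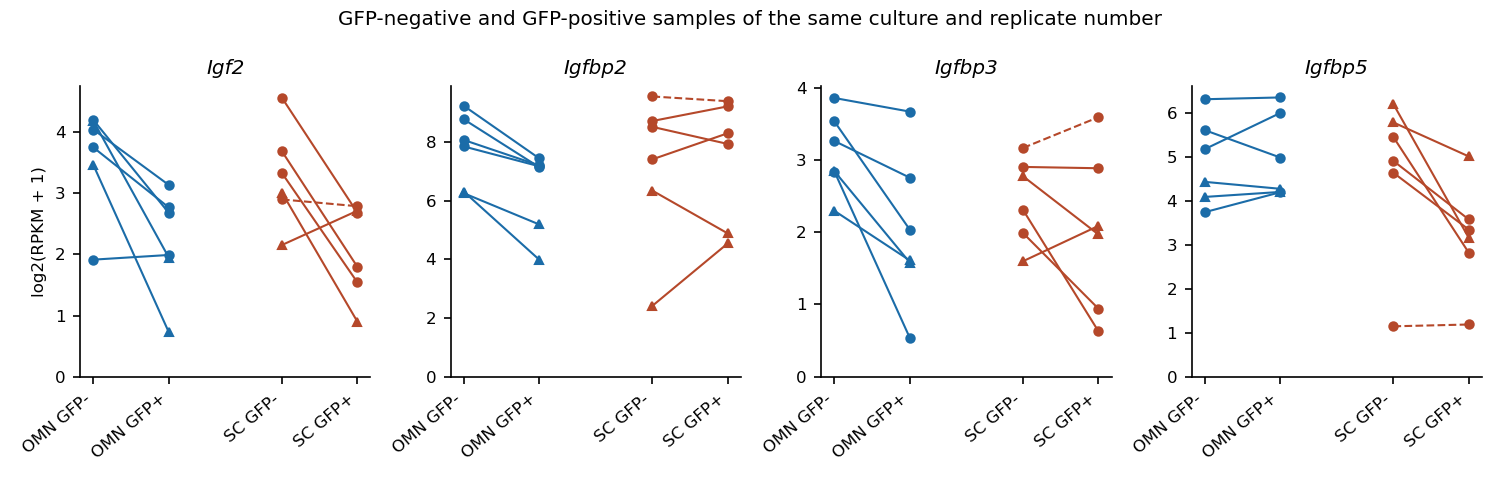
Values of *Igf2*, *Igfbp2*, *Igfbp3* and *Igfbp5* as log2(RPKM + 1) in GFP- and GFP+ libraries, where a line joins libraries of the same culture and replicate number; circles are replicates 1 to 4, triangles replicates 5 and 6, and the dashed line is spinal culture 4. All 6 OMN lines fell for *Igfbp2* and *Igfbp3*, 5 of 6 fell for *Igf2*, and 5 of 6 SC lines fell for *Igfbp5*, with spinal culture 4 flat and low.

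*Igf1*, the ligand best known from liver and muscle, was barely detected. Its highest value was 1.07 RPKM in OMN GFP+, 0.522 in OMN GFP-, 1.13 in SC GFP+ and 1.95 in SC GFP-, and it was at 0 in 1 SC GFP+ and 1 SC GFP- library. The median was 0.103 RPKM in the 16 libraries of replicates 1 to 4 and 0.724 RPKM in the 8 deeper libraries of replicates 5 and 6. No group difference exceeded the spread (log2 differences from -0.28 to 0.20 in the 4 comparisons, smallest adjusted p = 0.701), and at this depth a change in *Igf1* was not well resolved.

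*Igf1r*, the signaling receptor, had the narrowest range of the 10 genes, as the ratio of its highest to its lowest RPKM. Its group medians were 6.04 (OMN GFP+), 7.83 (OMN GFP-), 7.28 (SC GFP+) and 6.59 RPKM (SC GFP-), and all 24 values lay between 3.59 and 12.7 RPKM. The log2 difference between OMN GFP+ and SC GFP+ was -0.07 (SE 0.32, 95% interval -0.76 to 0.62), and the other comparisons gave -0.07 to 0.14 with SE 0.30. All 4 groups overlapped, and no neighbours in the order of medians differed.

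*Igf2r*, the clearance receptor, had lower medians in OMN than in SC cultures in both fractions, and neither difference passed. OMN GFP+ libraries ranged from 2.47 to 20.5 RPKM (median 10.9) and SC GFP+ libraries from 6.12 to 35.2 RPKM (median 19.7). The log2 difference was -0.92 (SE 0.49, adjusted p = 0.563). The GFP- libraries ranged from 5.34 to 29.3 RPKM (median 12.0) in OMN and from 10.6 to 158 RPKM (median 22.0) in SC cultures, with a log2 difference of -1.11 (SE 0.55, adjusted p = 0.457). The 158 RPKM belonged to SC GFP- replicate 6, and the next highest SC GFP- value was 35.1 RPKM. *Igf2r* was higher in GFP- than in GFP+ libraries in 6 of 6 OMN pairs, with GFP+ minus GFP- differences of -0.87 to -0.03 on the log2 scale, which did not pass with the block (mean -0.36, SE 0.31, adjusted p = 0.525).

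The receptor substrates did not pass in any comparison. *Irs1* was at most 2.02 RPKM (median over all samples 0.384), and 0 in OMN GFP+ replicate 3. With its single annotated transcript, its values correspond to an estimated 0 to 130 reads, so low libraries rest on very few. Its log2 difference between OMN GFP+ and SC GFP+ was -0.40 (SE 0.19, adjusted p = 0.507). *Irs2* had medians of 5.72 (OMN GFP+), 7.74 (OMN GFP-), 4.95 (SC GFP+) and 5.37 RPKM (SC GFP-), and log2 differences between -0.19 and 0.40 (SE 0.46 to 0.48). Both genes overlap antisense gene models in the annotation (*Gm9747* for *Irs1*, *9530052E02Rik* for *Irs2*), whose reads cannot be separated here.

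*Igfbp2*, a binding protein abundant in the fetal brain, was lower in OMN GFP+ than in OMN GFP- cells in every pair. OMN GFP+ libraries ranged from 14.9 to 173 RPKM (median 142) and OMN GFP- libraries from 75.6 to 603 RPKM (median 249). The groups overlapped, but within pairs the log2 difference ran from -2.32 to -0.68 and was negative in 6 of 6 pairs. Its mean of -1.39 did not pass without the block (SE 1.04, adjusted p = 0.570) and did with it (SE 0.37, adjusted p = 0.0191). Of the 6 blocked fits that left out 1 OMN pair, 3 passed, with adjusted p from 0.0275 to 0.0696, the fits without replicate 1, 4 or 6 being those that did not. In SC cultures the log2 difference was 0.22 (SE 0.37 with the block, adjusted p = 0.785), with 3 pairs lower and 3 higher in GFP+ cells. In the unblocked fit it moved when 1 library of spinal culture 4 was left out. It was -0.18 (adjusted p = 0.98) without SC GFP+ replicate 4 and 0.70 (adjusted p = 0.856) without SC GFP- replicate 4. With both left out it kept its sign, at 0.30 (adjusted p = 0.732) with the block. The interaction with the block was -1.61 (SE 0.52, adjusted p = 0.134), so the steps of the cultures were not shown to differ.

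The widest split in *Igfbp2* followed the replicate number. Replicates 1 to 4 ranged from 141 to 754 RPKM in all groups and replicates 5 and 6 from 4.35 to 80.5 RPKM. *Igfbp2* was the 1 of the 10 genes whose values in these sets of libraries did not overlap, against 1.06% of all genes with replicates 1 to 4 higher and 0.636% with them lower. The labels do not say what separates the sets, and they also differed in depth. The study's methods name different sequencing instruments and read lengths, which the labels do not assign to libraries. Their part in this split was not tested. Within each set the OMN fraction difference kept its sign, at -1.24 in replicates 1 to 4 and -1.69 in replicates 5 and 6. The OMN GFP+ against SC GFP+ difference was -1.02 (SE 0.92, adjusted p = 0.736) over all libraries, -0.62 (SE 0.93, adjusted p = 0.870) without SC GFP+ replicate 4, -1.47 in replicates 1 to 4 and -0.13 in replicates 5 and 6. With the replicate set as a covariate, chosen after seeing the data, *Igfbp2* did not pass in any comparison.

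*Igfbp3*, the main carrier of IGFs in serum, was also lower in OMN GFP+ than in OMN GFP- cells in 6 of 6 pairs. OMN GFP+ libraries ranged from 0.452 to 11.7 RPKM (median 2.57) and OMN GFP- libraries from 3.91 to 13.5 RPKM (median 7.38). The log2 difference was -1.07, with SE 0.49 and adjusted p = 0.242 without the block and SE 0.32 and adjusted p = 0.037 with it. It passed in 2 of the 6 blocked fits that left out 1 OMN pair, those without replicate 2 or 3 (adjusted p over the 6 from 0.0358 to 0.125). SC GFP+ libraries ranged from 0.549 to 11 RPKM (median 3.08) and SC GFP- libraries from 2.03 to 7.97 RPKM (median 4.90). The SC difference was -0.44 (SE 0.32 with the block, adjusted p = 0.501). The highest SC GFP+ and the highest SC GFP- value both came from spinal culture 4. Without that pair the blocked difference was -0.61 (SE 0.35, adjusted p = 0.357), and without SC GFP+ replicate 4 alone it was -0.75 (SE 0.48, adjusted p = 0.556) in the unblocked fit. *Igfbp3* lies 3.5 kb from *Igfbp1* on chromosome 11, and *Igfbp2* lies 5.5 kb from *Igfbp5* on chromosome 1.

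*Igfbp4*, a binding protein that is cleaved by the protease PAPP-A, had its highest values in OMN GFP+ cells. These ranged from 3.47 to 39.0 RPKM (median 16.9), SC GFP+ libraries from 1.13 to 9.13 RPKM (median 5.11), OMN GFP- libraries from 4.56 to 25.1 RPKM (median 6.96) and SC GFP- libraries from 3.64 to 13.2 RPKM (median 4.62). Replicates 1 to 4 of OMN GFP+, at 15.4 RPKM or more, were above all SC GFP+ libraries, whereas replicates 5 and 6, at 3.47 and 6.59 RPKM, were within their range. The log2 difference between OMN GFP+ and SC GFP+ was 1.56 (SE 0.58, adjusted p = 0.350), and 1.43 (adjusted p = 0.449) without the doubtful SC GFP+ replicate 4. The alternatives gave adjusted p between 0.0767 and 0.559. Against OMN GFP- cells *Igfbp4* was higher in OMN GFP+ cells in 5 of 6 pairs (0.83, SE 0.30 and adjusted p = 0.0765 with the block). Replicate 5 was the exception, and without that pair the difference was 1.08 (SE 0.29, adjusted p = 0.0294).

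*Igfbp5*, a binding protein found in muscle, bone and developing neural tissue, was low in SC GFP+ cells. These ranged from 1.28 to 31.2 RPKM (median 8.54), OMN GFP+ libraries from 17.3 to 80.6 RPKM (median 24.5), OMN GFP- libraries from 12.4 to 78.4 RPKM (median 27.9) and SC GFP- libraries from 1.21 to 72.4 RPKM (median 35.9). Of the SC GFP+ libraries, only replicate 6, at 31.2 RPKM, was within the OMN GFP+ range. In pairs of SC GFP- and SC GFP+ libraries the values were 29.0 and 10.9, 23.9 and 9.16, 42.7 and 6.06, 1.21 and 1.28, 72.4 and 7.92, and 54.0 and 31.2 RPKM for replicates 1 to 6. The gene fell in 5 of these 6 pairs, and the exception was spinal culture 4, both of whose libraries went against their labels. The log2 difference was -1.50, with SE 0.70 and adjusted p = 0.460 without the block and SE 0.33 and adjusted p = 0.0304 with it. Without spinal culture 4 it was -1.81 (SE 0.31, adjusted p = 0.00446) with the block and had an adjusted p of 0.0720 without the block. When any other SC pair was left out of the blocked fit the difference did not pass (highest adjusted p = 0.108). The summed neural progenitor markers were also higher in GFP- than in GFP+ libraries in 6 of 6 SC pairs, at 734 and 382, 317 and 251, 1281 and 342, 194 and 191, 2599 and 296, and 1731 and 1495 RPKM for replicates 1 to 6. Summed endoderm markers were higher in the GFP- library of each SC pair except spinal culture 4 (64.4 RPKM in GFP- and 77.7 RPKM in GFP+). Sums of pluripotent cell markers and of fibroblast and mesenchyme markers went in both directions over the SC pairs. The part of these markers in the *Igfbp5* result was not tested.

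In OMN cultures the *Igfbp5* fractions were alike to within the interval of the blocked fit (log2 difference 0.11, 95% interval -0.60 to 0.82). The interaction with the block was 1.61 (SE 0.47, adjusted p = 0.10) with all libraries and 1.92 (SE 0.42, adjusted p = 0.0326) without spinal culture 4, an alternative chosen after seeing the data. Between the GFP+ groups the log2 difference was 1.82 in favor of OMN (SE 0.58, adjusted p = 0.245), or 1.42 (SE 0.50, adjusted p = 0.319) without SC GFP+ replicate 4. It was 2.65 in replicates 1 to 4 and 0.15 in replicates 5 and 6. Between the GFP- groups it was 0.21 (SE 0.70, adjusted p = 0.947), and -0.50 (adjusted p = 0.747) without SC GFP- replicate 4.

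The makeup of binding protein transcripts, shown in the plot of shares, followed from these levels and is given as a description. *Igfbp2* held a median of 62.2% of the summed RPKM of the 4 binding protein genes in OMN GFP+, 78.5% in OMN GFP-, 94.4% in SC GFP+ and 85.1% in SC GFP-. *Igfbp5* held medians of 27.0%, 12.9%, 2.54% and 10.9% in the same groups. *Igfbp4* held 11.9% in OMN GFP+ and 2.22% to 3.47% in the others, and *Igfbp3* between 1.31% and 3.17%. The summed RPKM of the 4 genes had medians of 197, 319, 297 and 314. In replicate 6 of SC GFP-, *Igfbp5* held 84.4% and *Igfbp2* 6.79%.

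**Figure D4:**
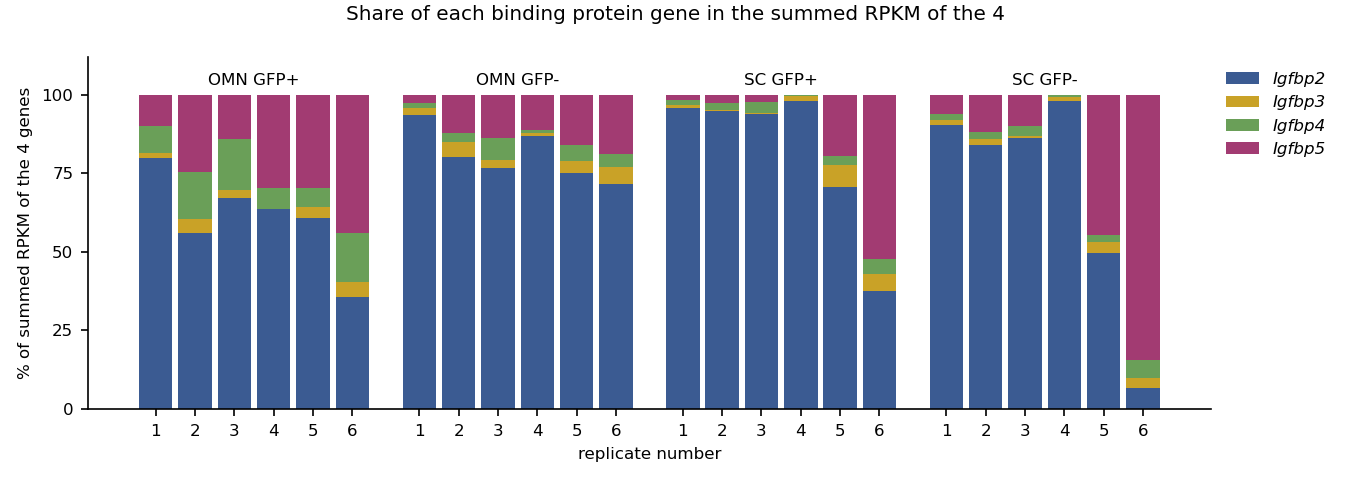
Share of each of the 4 binding protein genes, in percent of their summed RPKM, in each of the 24 libraries by group and replicate number. *Igfbp2* held the largest share in 21 of 24 libraries, and *Igfbp5* held its largest shares in replicate 6 of OMN GFP+ and SC GFP+ and in replicates 5 and 6 of SC GFP-.

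Genes whose levels followed the members over the 24 samples are given as a description, since samples share groups, depth and replicate set. Among 11950 genes with a mean of at least 1 RPKM, *Igf2* was closest to *Cnn2* (Pearson r = 0.87), *Zfp36l1* (0.83) and *Kif1c* (0.79). *Igfbp2* was closest to *H2afx* (0.94), *Pgp* (0.94) and *Miip* (0.92). *Igfbp3* was closest to *Cenpn* (0.92), *Igfbp4* to *Arhgef25* (0.86), *Igf2r* to *Ric1* (0.90), *Irs2* to *Nek9* (0.81) and *Igf1r* to *Nrbp2* (0.72). *Igfbp5* was closest to *Arhgef28* (0.75) and then to *Foxa2* (0.73), a transcription factor gene counted here among the floor plate markers. Among the members themselves, the highest correlation was between *Igf1r* and *Irs2* (0.62) and the lowest between *Igf2r* and *Igfbp4* (-0.61). *Igf1* and *Irs1* had a mean under 1 RPKM and were not compared with other genes.

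A list of 27 other genes of the pathway (insulin ligands and receptors, further binding proteins, adaptors, proteases and their inhibitors, and *Igf2* mRNA-binding proteins) gave 26 entries in the table. *H19* was not analysed here. Of 25 tested, 4 passed between the OMN fractions, 3 higher and 1 lower in GFP+ cells, beside 3.81% and 2.34% of all genes. Between the SC fractions 1 passed, lower in GFP+ cells (0.83% of all genes). Between the GFP- groups 1 passed, higher in OMN (0.41%), and 0 passed in the interaction (0.32%). Of 23 tested between the GFP+ groups 0 passed and 4 had an unadjusted p under 0.05, beside 0.603% and 10.1% of all genes. The list's median log2 difference was -0.06 between the OMN fractions and 0.11 between the GFP+ groups, beside 0 and -0.04 for all genes.

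*Grb14*, an adaptor that binds and inhibits activated insulin and IGF receptors, was higher in OMN GFP+ cells (0.480 to 2.23 RPKM) than in OMN GFP- cells (0 to 0.309 RPKM). The groups did not overlap, as for 6.52% of all genes, and the log2 difference was 1.03 (SE 0.18, adjusted p = 0.000723). SC GFP+ libraries held 0 to 0.804 RPKM, and their difference from OMN GFP+ was 0.97 (SE 0.25, adjusted p = 0.136). *Sh2b2*, an adaptor of the insulin receptor, was also higher in OMN GFP+ cells without overlap, at 2.46 to 7.88 against 0.460 to 1.65 RPKM (log2 difference 1.66, SE 0.36, adjusted p = 0.00527). In SC cultures its difference was 0.89 (SE 0.36, adjusted p = 0.339). Without spinal culture 4 and with the block it was 1.17 (SE 0.30, adjusted p = 0.0438).

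*Igfbpl1*, a relative of the binding proteins, was at 5.88 to 44.5 RPKM in OMN GFP+ and 0.319 to 11.2 RPKM in OMN GFP- cells, and it was higher in GFP+ cells in 6 of 6 pairs (log2 difference 2.59, SE 0.64, adjusted p = 0.0144). *Irs4*, a further receptor substrate encoded on the X chromosome, was near the detection limit. It was lower in OMN GFP+ (0 to 0.561 RPKM) than in OMN GFP- cells (0 to 2.23 RPKM; log2 difference -0.63, SE 0.18, adjusted p = 0.0389), a call lost when any of 7 single OMN libraries was left out (OMN GFP- replicates 1, 2 and 6 and OMN GFP+ replicates 1, 3, 5 and 6, adjusted p 0.0547 to 0.101). *Irs4* was also higher in OMN GFP- than in SC GFP- cells, where it was at 0 in 6 of 6 libraries (adjusted p = 0.0178, and 0.0537 without OMN GFP- replicate 2). *Igfbp1*, a binding protein typical of liver, was at 0 in all GFP+ libraries and at 0 to 2.52 RPKM in SC GFP- cells, where it was higher than in SC GFP+ cells (adjusted p = 0.0174, and 0.0503 without SC GFP- replicate 1). Its values in SC GFP- cells correspond to an estimated 0 to 16.9 reads. Endoderm markers were also higher in SC GFP- libraries, as given above, and their part in this result was not tested. No fold is given against a group listed at 0.

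With the pair block, 2 more genes of the list passed between the OMN fractions. That made 6 of 25, with 2 lower in GFP+ cells, beside 16.4% of all genes called and 8.21% called lower in that fit. *Stc2*, a secreted inhibitor of the protease PAPP-A, was lower in OMN GFP+ cells in 6 of 6 pairs (log2 difference -1.15, SE 0.21, adjusted p = 0.00262), and *Shc1*, an adaptor of growth factor receptors, was higher in 6 of 6 pairs (0.70, SE 0.22, adjusted p = 0.0445). *Stc2* passed in all 6 blocked fits that left out 1 OMN pair, whereas *Shc1* passed in 0 of them (adjusted p from 0.0683 to 0.142). In 6 of 6 OMN pairs *Insr* and *Igf2bp2* were also higher and *Grb10* lower in GFP+ cells. None of these passed with the block (adjusted p = 0.0616, 0.164 and 0.167). *Shc1* also had the largest difference of the list between the GFP+ groups, at 8.54 to 24.4 RPKM in OMN and 1.06 to 11.6 RPKM in SC cells (log2 difference 1.85, SE 0.44, adjusted p = 0.0987). Its highest SC GFP+ value was that of replicate 4, and without that library the difference was 2.14 (SE 0.40, adjusted p = 0.0342).

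**Figure D5:**
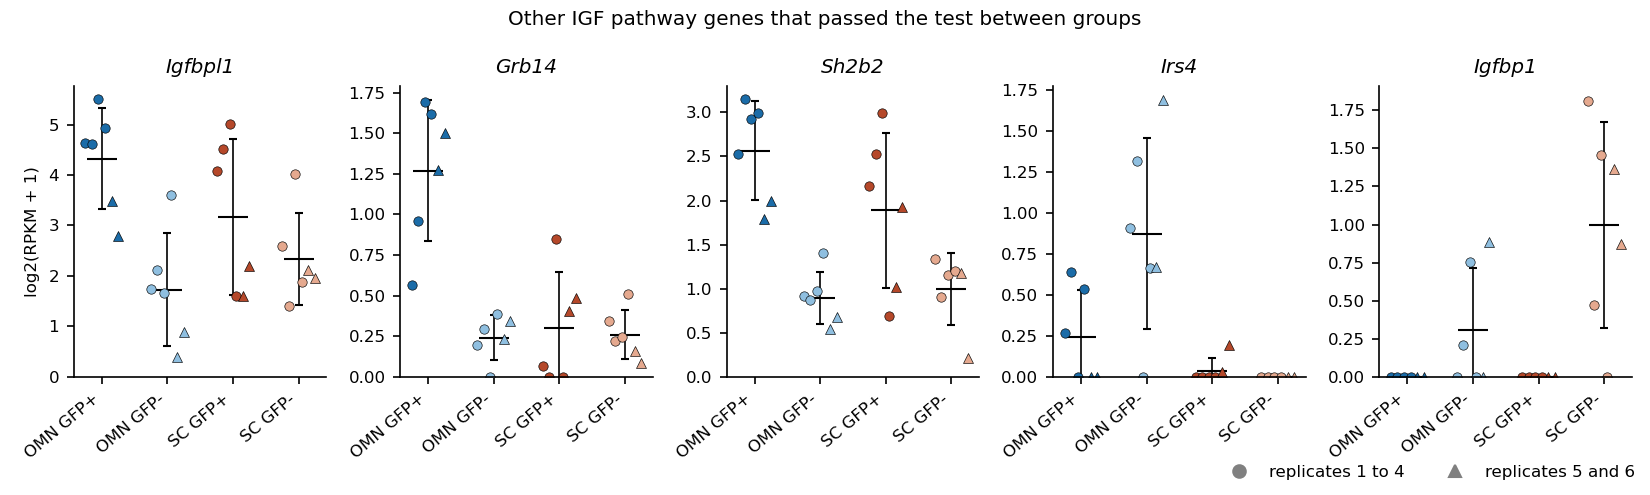
Level of the 5 other pathway genes that passed a test without the pair block, as log2(RPKM + 1) in each sample by group, with circles for replicates 1 to 4, triangles for replicates 5 and 6, and black bars for the mean ± SD of 6 samples; each panel has its own vertical range. *Grb14* and *Sh2b2* were higher in all OMN GFP+ than in all OMN GFP- libraries, and *Igfbp1* was at 0 in all GFP+ libraries.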

How the data were processed

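The deposited table holds RPKM for 24 samples, which the authors computed with rpkmforgenes after mapping poly(A) SMART-seq2 reads (unstranded, without molecular identifiers) to mm10/GRCm38 with HISAT2 2.0.3, per the labels and the study's methods. The gene annotation is not given in the sources used here. DESeq2 1.12.4, named in the submitters' processing notes, served their own comparisons. Groups and replicate numbers came from the sample titles. Nothing states that replicates were separate differentiations, so p-values measure the spread between these samples, which may be technical.

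RPKM are not counts, so log2(RPKM + 1) was fitted with limma 3.58.1 (mean-variance trend) in R 4.3.3, keeping genes detected (above 0 RPKM) in 2 or more fitted samples. Fold changes on this scale understate changes of genes near or below 1 RPKM. OMN GFP+ and SC GFP+ were compared in a fit of 12 samples, and the other comparisons in 1 fit of 24 samples in 4 groups. Benjamini-Hochberg adjustment ran over all genes. GFP+ and GFP- libraries with the same culture and number were taken as pairs. Deviations from group means within a pair correlated over 11952 genes (0.38 to 0.73 in OMN and 0.42 to 0.66 in SC cultures, above 0.1 in 6 of 6 each). Replicates 5 and 6 also correlated across cultures (0.57 to 0.71), so in them such a correlation is not particular to a pair. Depth was estimated from RPKM steps in genes with 1 transcript, where 95.8% to 97.9% of values under 10 reads were within 2% of a whole read; a count test on recovered reads was not run, since lengths of other genes are unknown. In simulated data with 200 genes changed by a log2 value of 2, the fits called 49.5% (OMN GFP+ against SC GFP+), 57.5% (GFP- groups), 61.5% (OMN fractions), 62.5% (SC fractions) and 20.5% (interaction), of 22849 genes in the first and 22852 in the others, all in the right direction. The changed genes were drawn from those with a mean log2(RPKM + 1) above 2, so *Igf1* and *Irs1* could not be drawn. The simulated noise was independent between libraries, and the blocked fits were not simulated. The highest correlation between samples was 0.986, and none was a duplicate.

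The genes, the pathway list and the markers were chosen with earlier results of these data known. All 10 genes are named, with pathway genes that passed a test and the 3 genes most correlated with a member, of which the text gives the first or more. *Stc2* and *Shc1* were named for the blocked test. Positions come from GENCODE M21 (GRCm38) and promoters from RefSeq, in which all 10 genes matched. Python 3.11.15, pandas 2.3.3, numpy 2.4.6 and matplotlib 3.10.9 were used. Alternatives were the offset, filters, rescaling, sample weights, subsets of samples and replicate blocks.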

Additional observations from a re-analysis of the deposited data

Results flagged for a closer look

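Of 60 sets of 6 values (15 genes in 4 groups), those at 0 in all 6 libraries could not be tested. These were *Igfbp1* in OMN GFP+ and SC GFP+ and *Irs4* in SC GFP-. In 5 others, a library's gap to its neighbor, as a share of the group's range, exceeded Dixon's 95% critical value for 6 values. Chance alone gives about 1 in 20. *Igf2* in OMN GFP- was lowest in replicate 1, at 2.77 RPKM (share 0.677). *Igfbp4* in OMN GFP- was highest in replicate 3, at 25.1 RPKM (0.688). *Igfbp5* in SC GFP- was lowest in replicate 4, at 1.21 RPKM (0.691), the library that also held *Mnx1* at 69.4 RPKM. *Irs1* in SC GFP+ was highest in replicate 2, at 1.5 RPKM (0.644), and *Irs4* in SC GFP+ was highest in replicate 6, at 0.145 RPKM (0.839).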

How the results depend on the processing

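No called value changed sign under any alternative run. Between the cultures, in GFP+ or GFP- cells, 0 of 10 members passed in every alternative, single samples left out included. Between the OMN fractions the count of 0 became 1 after rescaling by the median ratio (*Igf2*, adjusted p = 0.0492), 2 with sample quality weights (*Igf2*, 0.00417, and *Igfbp3*, 0.0167) and 1 with the replicate set as a covariate (*Igf2*, 0.0486). It was 0 to 1 when each sample was left out (1 without OMN GFP- replicate 1). Between the SC fractions it became 1 without SC GFP- replicates 2 and 4 (*Igfbp5*, 0.0408), and was 0 to 1 when each sample was left out (1 without SC GFP- replicate 4). The replicate block within cultures gave 3 members in OMN, 1 in SC and 0 in the interaction. With each pair left out of it, the counts were 0 to 3, 0 to 1 and 0 to 1, and with rescaling they were 3, 1 and 0. OMN pairs 4 and 6 were those without which no OMN member passed. A replicate block across cultures changed no member call. These member counts describe only how the calls depended on the processing. They were not read against the share of all genes called in the same fits. Libraries of the same number in the 2 cultures correlated at -0.17 to 0.44 in replicates 1 to 4 and at 0.57 to 0.71 in replicates 5 and 6. Numbers of all genes called moved more: between the GFP+ groups 116 became 13 (replicates 5 and 6), 30 (replicates 1 to 4), 73 (block across cultures), 191 (replicate set), 229 (offset 0.1 RPKM), 260 (weights) and 342 (fit of 24 samples). Between the OMN fractions 1364 became 476 (replicates 1 to 4) to 4013 (rescaled block within cultures), between the SC fractions 272 became 1 (replicates 1 to 4) to 817 (rescaled block), between the GFP- groups 213 became 39 (replicates 1 to 4) to 650 (weights), and for the interaction 71 became 10 (replicates 1 to 4) to 555 (rescaled block). With each sample left out these counts were 1017 to 1558, 186 to 634, 115 to 444 and 41 to 234, and 67 to 181 between the GFP+ groups. Of the pathway genes, *Grb14* (0.0555) and *Igfbpl1* (0.0580) missed the threshold in replicates 1 to 4 and *Sh2b2* (0.171) in replicates 5 and 6. The causes were not tested. Depth limits *Igf1*, *Irs1*, *Irs4* and *Igfbp1*, and the simulated fits missed many changes of a log2 value of 2.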
